A study of Mus musculus with 12 samples.

Results

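A set of 10 genes of the T cell checkpoint system was followed through tumours of mice given regorafenib, an antibody against PD-1, both or neither. They are Pdcd1 (PD-1), its ligand genes Cd274 (PD-L1) and Pdcd1lg2 (PD-L2), the inhibitory receptor genes Ctla4, Lag3, Havcr2 (TIM-3) and Tigit, the costimulatory receptor gene Cd28, and Cd80 and Cd86, whose products bind both CD28 and CTLA-4. The 10 genes were chosen by symbol, as the antibody's target, its ligands and other inhibitory or costimulatory receptors and ligands, and each symbol matched 1 of the 55487 gene identifiers in the count table. All 10 had enough counts to be among the 16974 genes tested.

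T cells need a signal through CD28 besides that of the antigen receptor, and CTLA-4 competes with CD28 for CD80 and CD86. PD-1 appears on activated T cells and, when bound by PD-L1 or PD-L2, recruits phosphatases that dampen signalling from the antigen receptor and CD28. PD-L1 is made by tumour cells and myeloid cells and is induced by interferon gamma, while PD-L2 is found mainly on dendritic cells and macrophages.

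The tumours were grown from Sq-1979, a murine squamous carcinoma line of the head and neck, which was injected subcutaneously with Matrigel into C3H/HeN males aged 6 weeks. Treatment began after day 20 with both drugs (combination), regorafenib alone at 5 mg/kg per day, anti-PD1 alone or vehicle, 3 libraries each, so that all 4 groups share the line, the strain and the site. Regorafenib inhibits several kinases, the VEGF receptors among them. The labels give oral gavage for every treatment and state neither the antibody's dose and clone nor whether each sample is a mouse of its own, so the p-values measure the spread between these samples, which may be technical.

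The 12 libraries of polyadenylated RNA held 22591835 to 28209036 counts each. The 7 markers of squamous epithelium were all detected, at a summed level of 10667 to 15789 CPM (counts relative to library size, scaled with TMM factors). Among the treated libraries, 4 stood apart from the others: in combination 3, regorafenib 1, regorafenib 2 and anti-PD1 3, the mean log2 CPM of 10 T cell genes was 1.24 to 1.39 above the vehicle mean, against -0.35 to 0.64 in the other 8 libraries. The same 4 libraries were highest for 9 myeloid genes, by 0.78 to 0.94 against -0.50 to 0.13 in the other 8. Each treated group holds at least 1 of these 4 libraries and at least 1 of the others. In such bulk tissue, fewer cells of a type and less RNA per cell cannot be told apart.

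The sequence just before the start of Pdcd1 and of the genes for its ligands is shown because interferon-responsive genes were the closest in pattern to Cd274 among all genes compared. Each line gives the 250 bases before the RefSeq start in build GRCm38.p6, 5′ to 3′ on the gene's own strand, with matches to the short motifs GAAANNGAA (in Cd274) and GAANNGAAA (in Pdcd1) in capitals. The windows are chr1:94052554-94052803 (minus strand) for Pdcd1, chr19:29367188-29367437 (plus strand) for Cd274 and chr19:29410669-29410918 (plus strand) for Pdcd1lg2.
Pdcd1: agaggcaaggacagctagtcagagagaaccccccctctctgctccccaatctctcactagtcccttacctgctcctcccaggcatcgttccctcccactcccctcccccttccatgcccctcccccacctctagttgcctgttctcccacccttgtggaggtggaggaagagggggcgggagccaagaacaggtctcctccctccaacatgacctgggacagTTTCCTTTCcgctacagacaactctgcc
Cd274: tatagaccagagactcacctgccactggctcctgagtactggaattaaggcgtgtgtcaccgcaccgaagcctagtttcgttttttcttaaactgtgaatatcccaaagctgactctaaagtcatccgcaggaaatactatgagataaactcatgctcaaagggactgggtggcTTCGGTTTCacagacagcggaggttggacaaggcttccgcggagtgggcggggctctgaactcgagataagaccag
Pdcd1lg2: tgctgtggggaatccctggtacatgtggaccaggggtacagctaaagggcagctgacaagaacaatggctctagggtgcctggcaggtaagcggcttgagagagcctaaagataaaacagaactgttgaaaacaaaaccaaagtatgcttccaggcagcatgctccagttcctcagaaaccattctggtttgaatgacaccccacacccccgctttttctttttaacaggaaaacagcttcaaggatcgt

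Motifs were searched on both strands from 250 bases before to 50 after the start, in the 7 of the 10 genes that RefSeq's promoter table holds and in all 32851 promoters of that table. GAAANNGAA is part of the core of the interferon-stimulated response element, whereas GAANNGAAA has a shorter spacing between its repeats and is not part of that core. The Cd274 window holds GAAANNGAA on the minus strand, at bases -76 to -68 from the start, and so does that of Ctla4, at -166 to -158. Of all promoters, 8.56% hold this motif. The Pdcd1 window holds GAANNGAAA on the minus strand at -28 to -20, a motif in 7.52% of promoters. The Pdcd1lg2 window holds neither of these motifs.

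Per kilobase of exon, the mean level over the 12 libraries was 35.1 CPM per kb for Cd274, 13.7 for Lag3, 9.06 for Tigit, 7.99 for Havcr2, 5.31 for Pdcd1, 5.17 for Cd86, 4.94 for Cd80, 2.47 for Ctla4, 1.84 for Pdcd1lg2 and 0.522 for Cd28. Each gene's range over the libraries overlapped that of its neighbour in this order: Cd274 ran from 12.6 to 62.4 CPM per kb and Lag3 from 6.70 to 28.8. Counts behind the values ran from 18 for Pdcd1lg2 in a vehicle library to 5331 for Cd274 in an anti-PD1 library, so Pdcd1lg2 carries the largest counting error. The levels below are CPM and are compared only between libraries of the same gene.

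Pdcd1 (ENSMUSG00000026285, GRCm38 chr1:94038305-94052553, minus strand), the gene of the antibody's target, was detected in all 12 tumours. It had 5.88, 8.0 and 16.9 CPM in combination tumours, 14.9, 14.4 and 8.86 CPM under regorafenib, 13.6, 6.26 and 16.7 CPM under anti-PD1, and 6.88, 5.90 and 4.71 CPM under vehicle. Every regorafenib library lay above every vehicle library, whereas the combination and anti-PD1 groups each overlapped vehicle. The log2 fold change against vehicle was 0.82 ± 0.43 (SE) for the combination, 1.13 ± 0.43 for regorafenib and 1.07 ± 0.43 for anti-PD1, with adjusted p-values of 0.244, 0.289 and 0.865 in edgeR's quasi-likelihood test.

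Cd274 (ENSMUSG00000016496, chr19:29367455-29388095, plus strand) had 137, 155 and 178 CPM in combination tumours, 116, 181 and 86.9 CPM under regorafenib, 226, 77.5 and 162 CPM under anti-PD1, and 90.3, 71.2 and 45.5 CPM under vehicle. The combination group did not overlap vehicle, and its highest library was 1.30 times its lowest, against 2.08 times under regorafenib, 2.92 times under anti-PD1 and 1.98 times under vehicle. Against vehicle the edgeR log2 fold change was 1.18 ± 0.39 (SE) in the combination, a 2.27-fold difference with an adjusted p of 0.0841, which misses the threshold of 0.05. DESeq2 gave 1.18 with an adjusted p of 0.0213, and edgeR on the 6 libraries of the pair gave 1.18 with 0.0292, so the call on Cd274 depends on the test. The other 2 contrasts gave 0.89 ± 0.39 for regorafenib (adjusted p = 0.336) and 1.17 ± 0.39 for anti-PD1 (adjusted p = 0.865). Of the exon bases of Cd274, 511 lie opposite AC119228.1, and the strand setting of the counting is not given in the sources used here, so reads of the 2 genes there may not be separated.

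Pdcd1lg2 (ENSMUSG00000016498, chr19:29410919-29471161, plus strand) was the most variable of the 10 genes. It had 1.28, 1.74 and 6.16 CPM in combination tumours, 10.2, 6.77 and 0.960 CPM under regorafenib, 3.65, 1.15 and 8.84 CPM under anti-PD1, and 0.839, 0.922 and 0.694 CPM under vehicle. Each treated library lay above each vehicle library, but by a narrow margin: regorafenib 3 had 26 counts and vehicle 2 had 25. Within the regorafenib group the highest library was 10.6 times the lowest. The log2 fold change was 1.90 ± 0.94 (SE) for the combination, 2.86 ± 0.96 for regorafenib and 2.47 ± 0.95 for anti-PD1, with edgeR adjusted p-values of 0.217, 0.233 and 0.865. DESeq2 called Pdcd1lg2 under regorafenib, at 2.87 with an adjusted p of 0.0352. Without combination 3 the combination value was 0.88.

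**Figure D1:**
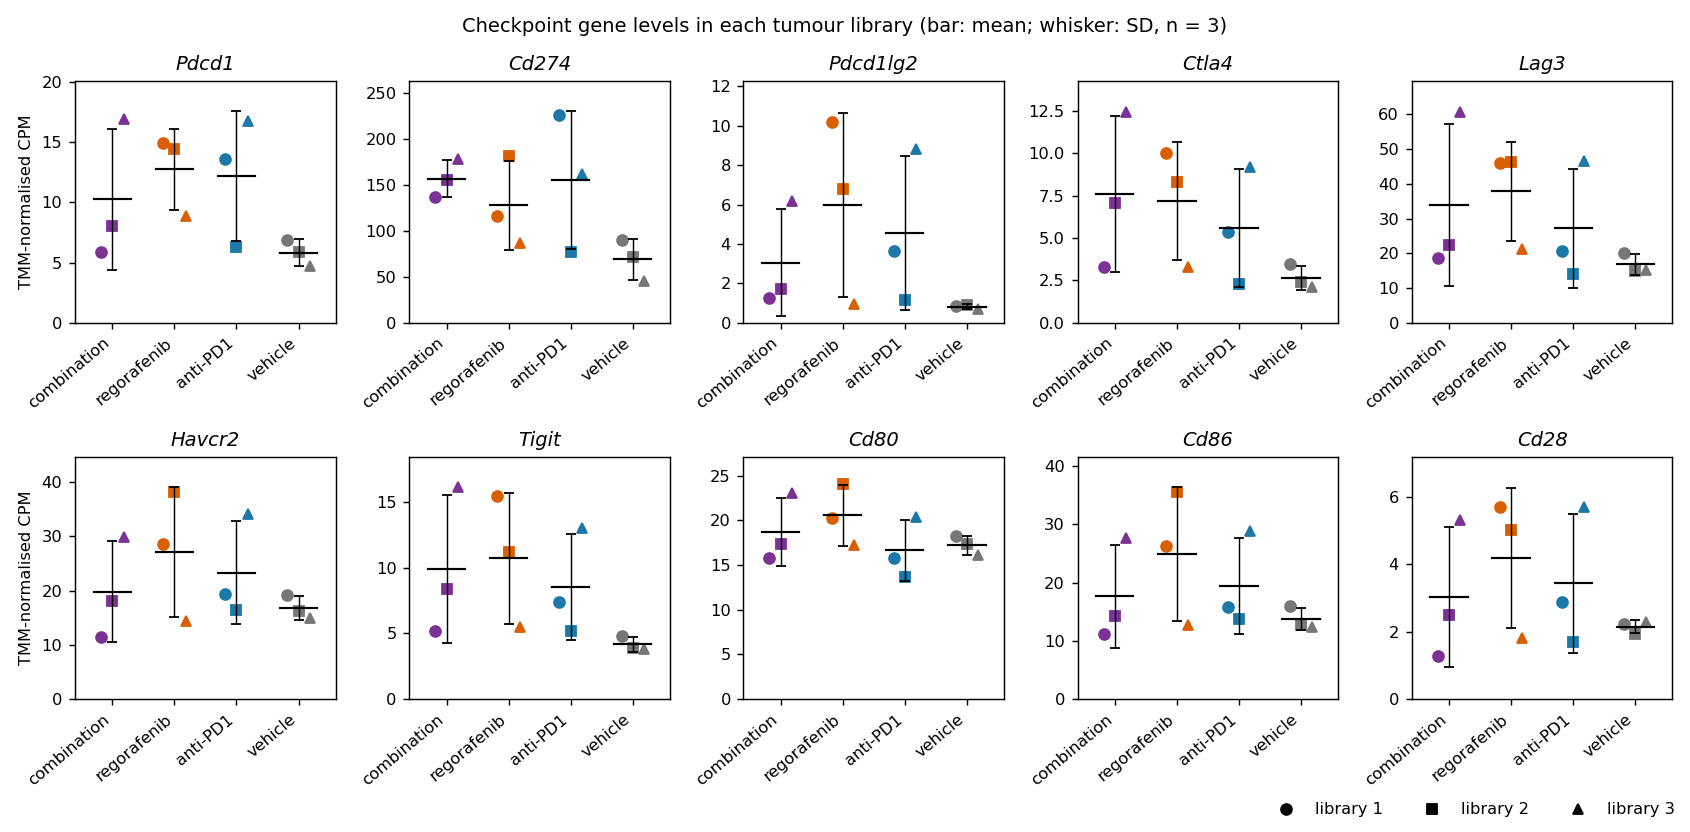
TMM-normalised CPM of the 10 genes in each library, by treatment; symbols are libraries, horizontal bars group means and whiskers the SD (n = 3), on linear axes that start at 0. For most genes the vehicle libraries lie close together, whereas each treated group holds high and low libraries. Cd274 differs, with vehicle libraries spread from 45.5 to 90.3 CPM. For Cd274 all 3 combination libraries, at 137 to 178 CPM, lie above the highest vehicle library at 90.3 CPM.

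Ctla4 (ENSMUSG00000026011, chr1:60887000-60915832), which encodes the receptor that competes with CD28, had 3.27, 7.07 and 12.4 CPM in combination tumours, 9.98, 8.31 and 3.29 CPM under regorafenib, 5.35, 2.27 and 9.16 CPM under anti-PD1, and 3.44, 2.4 and 2.12 CPM under vehicle. All 3 treated groups overlapped vehicle. The log2 fold change was 1.52 ± 0.60 (SE) for the combination, 1.44 ± 0.60 for regorafenib and 1.08 ± 0.60 for anti-PD1, with edgeR adjusted p-values of 0.134, 0.319 and 0.865. Its costimulatory counterpart Cd28 (ENSMUSG00000026012, chr1:60716800-60773359) had 1.28, 2.51 and 5.32 CPM in combination tumours, 5.71, 5.01 and 1.81 CPM under regorafenib, 2.89, 1.69 and 5.71 CPM under anti-PD1, and 2.22, 1.92 and 2.28 CPM under vehicle. The lowest Cd28 values of all 12 were in treated libraries, and its estimates against vehicle were 0.51 ± 0.59 for the combination, 0.96 ± 0.59 for regorafenib and 0.68 ± 0.59 for anti-PD1 (edgeR adjusted p from 0.478 to 0.870).

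The ligand genes shared by those receptors, Cd80 and Cd86, were expressed at similar levels per kilobase but differed in spread. Cd80 (ENSMUSG00000075122, chr16:38455561-38496335) had 15.8, 17.3 and 23 CPM in combination tumours, 20.3, 24.1 and 17.3 CPM under regorafenib, 15.8, 13.7 and 20.3 CPM under anti-PD1, and 18.2, 17.3 and 16.1 CPM under vehicle. It was the steadiest of the 10 genes, with an SD of 0.24 on the log2 scale over the 12 libraries, and its estimates against vehicle were 0.12 ± 0.18 (SE) for the combination, 0.25 ± 0.18 for regorafenib and -0.05 ± 0.18 for anti-PD1. Cd86 (ENSMUSG00000022901, chr16:36603869-36666081) had 11.1, 14.2 and 27.7 CPM in combination tumours, 26.3, 35.6 and 12.7 CPM under regorafenib, 15.8, 13.7 and 28.8 CPM under anti-PD1, and 15.9, 12.8 and 12.5 CPM under vehicle. Its estimates were 0.37 ± 0.43 for the combination, 0.86 ± 0.43 for regorafenib and 0.50 ± 0.43 for anti-PD1. The smallest edgeR adjusted p of Cd80 and Cd86 against vehicle was 0.396, for Cd86 under regorafenib.

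Among the remaining inhibitory receptors, Lag3 (ENSMUSG00000030124, chr6:124904361-124911705), which binds MHC class II, had 18.5, 22.3 and 60.7 CPM in combination tumours, 45.9, 46.3 and 21.3 CPM under regorafenib, 20.8, 14.1 and 46.5 CPM under anti-PD1, and 20.2, 14.9 and 15.3 CPM under vehicle. Tigit (ENSMUSG00000071552, chr16:43648867-43664146), a receptor for PVR, had 5.21, 8.39 and 16.1 CPM in combination tumours, 15.4, 11.2 and 5.5 CPM under regorafenib, 7.42, 5.18 and 13 CPM under anti-PD1, and 4.78, 3.87 and 3.82 CPM under vehicle. All 9 treated libraries exceeded the highest vehicle library for Tigit, and all 3 regorafenib libraries did so for Lag3. The Tigit estimates were 1.25 ± 0.48 (SE) for the combination, 1.36 ± 0.49 for regorafenib and 1.04 ± 0.48 for anti-PD1, with edgeR adjusted p-values of 0.128, 0.259 and 0.865. Those of Lag3 were 1.01 ± 0.53 for the combination (adjusted p = 0.239), 1.17 ± 0.53 for regorafenib (0.354) and 0.69 ± 0.53 for anti-PD1 (0.865).

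Havcr2 (ENSMUSG00000020399, chr11:46454935-46481255), which T cells and myeloid cells both express, had 11.4, 18.1 and 29.9 CPM in combination tumours, 28.6, 38.3 and 14.4 CPM under regorafenib, 19.3, 16.5 and 34.2 CPM under anti-PD1, and 19.2, 16.3 and 14.9 CPM under vehicle. Its combination estimate was 0.24 ± 0.41 (SE), that of regorafenib 0.69 ± 0.41 and that of anti-PD1 0.47 ± 0.41 (edgeR adjusted p from 0.469 to 0.872). In the combination group 1 of the 3 libraries lay below all vehicle libraries, and in the regorafenib group likewise 1.

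In none of the 8 comparisons did any of the 10 genes pass edgeR's adjusted p of 0.05. Against vehicle, 0 of 10 passed in the combination, where 7.34% of all genes did (853 higher and 393 lower), 0 of 10 under regorafenib, against 0.00589% of all genes, and 0 of 10 under anti-PD1, against 0%. The 1246 calls over all genes in the combination changed with the libraries used: without any 1 of the 3 vehicle libraries 1 gene was called. Without combination 1 there were 23 and without combination 2 there were 12, but without combination 3 there were 1421. Leaving out an anti-PD1 or regorafenib library gave 851 to 1517. An unadjusted p under 0.05 was reached by 3 of the 10 genes in the combination (4743 of all genes), by 5 under regorafenib (2398) and by 3 under anti-PD1 (878). DESeq2 called 1 in the combination (2614 of all genes), 1 under regorafenib (425) and 0 under anti-PD1 (5). The median log2 fold change of the 10 genes was 0.91 for the combination, 1.04 for regorafenib and 0.87 for anti-PD1, while the median of all genes tested was 0.02 for the combination and 0.01 for each single drug. Without combination 3 the combination median of the 10 genes was 0.27, and without anti-PD1 3 that of anti-PD1 was 0.32. Estimates were positive for all 10 genes except that of Cd80 under anti-PD1. These 3 comparisons share the vehicle libraries.

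Counted by overlap, 3 of the 10 genes had every combination library above every vehicle library (Cd274, Pdcd1lg2 and Tigit), where 19.6% of all genes did. Under regorafenib there were 4 (Pdcd1, Pdcd1lg2, Lag3 and Tigit), with Pdcd1lg2 by the narrow margin given above, against 10.6% of all genes. Under anti-PD1 there were 2 (Pdcd1lg2 and Tigit), against 7.93%.

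**Figure D2:**
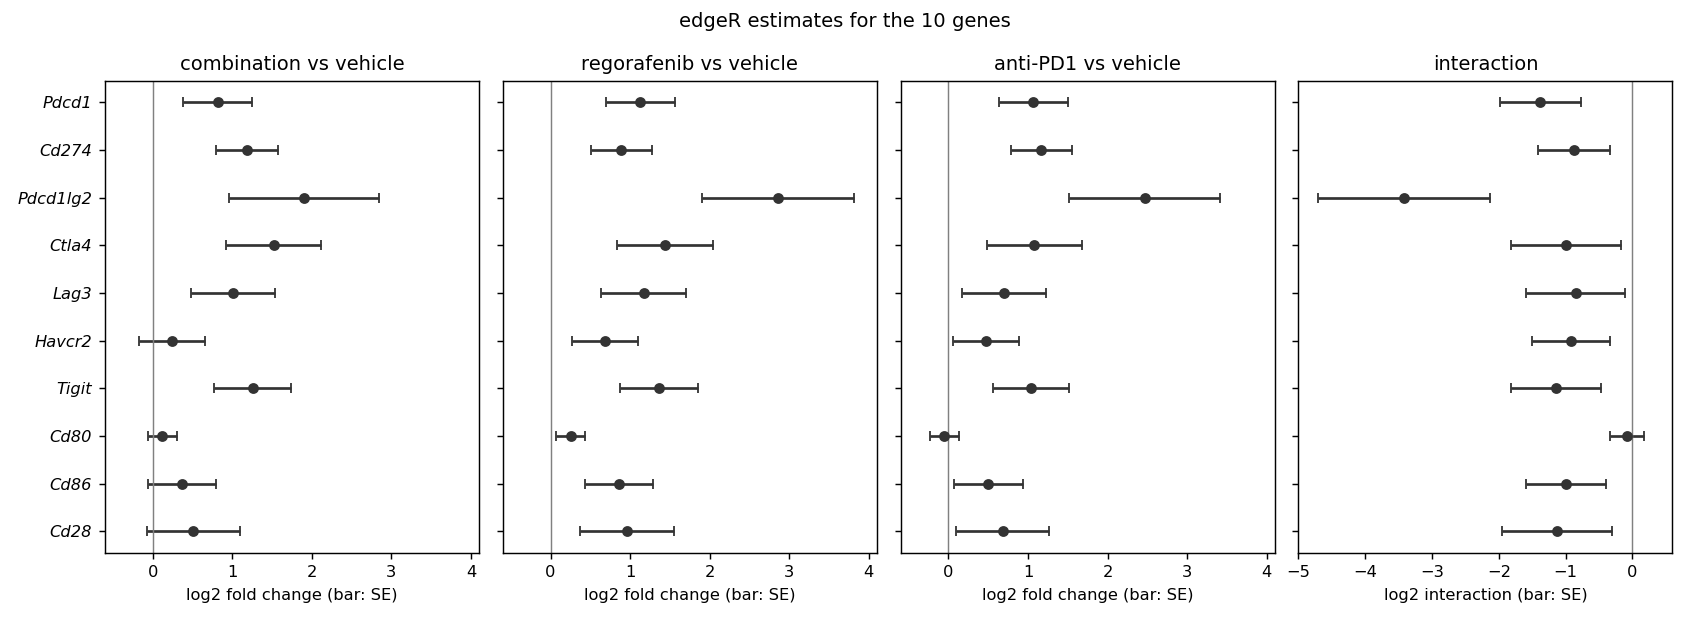
edgeR log2 estimates of the 10 genes with their SE for each treatment against vehicle (shared axis range) and for the interaction. Estimates against vehicle lie mostly to the right of 0 and those of the interaction to its left, from -3.42 for Pdcd1lg2 to -0.08 for Cd80, and 0 of 10 genes passed the adjusted threshold in any of these panels.

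Between the treatments, the combination was set against each single drug. Against anti-PD1 alone, 0 of 10 genes passed edgeR's test (1.92% of all genes did), and 5 of the 10 had positive and 5 negative estimates, from -0.57 for Pdcd1lg2 to 0.44 for Ctla4. The 326 calls over all genes in that comparison became 0 without anti-PD1 2, anti-PD1 3 or combination 2, 21 without combination 1, 45 to 89 without 1 of the vehicle libraries and 209 without regorafenib 3. They became 366 without anti-PD1 1, 429 without regorafenib 1 and 432 without combination 3. Against regorafenib alone, 0 of 10 passed (0% of all genes), and 8 of 10 estimates were negative, from -0.96 for Pdcd1lg2 to 0.29 for Cd274. An unadjusted p under 0.05 was reached by 0 of the 10 genes in either comparison, beside 3271 of all genes against anti-PD1 and 925 against regorafenib. DESeq2 called 0 of 10 in each, beside 1202 of all genes against anti-PD1 and 4 against regorafenib. The median of the 10 genes was -0.06 against anti-PD1 and -0.23 against regorafenib, and with a library left out it ran from -0.52 (without combination 3) to 0.33 (without anti-PD1 3) and from -0.87 (without combination 3) to -0.04 (without combination 1).

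Averaged over both antibody backgrounds, the 6 libraries with regorafenib were set against the 6 without it. Here 9.49% of all genes passed edgeR's test (1046 higher and 564 lower) and 0 of the 10 did, although all 10 estimates were positive, with a median of 0.45, which was 0.27 without combination 3 and 0.28 without anti-PD1 2. The 1610 calls over all genes became 460 without anti-PD1 2, 522 without combination 2, 552 to 556 without 1 of the vehicle libraries, 952 without anti-PD1 3 and 998 without combination 1. They became 1659 without combination 3, 1778 without regorafenib 2 and 2048 without anti-PD1 1. Tigit came nearest, at 0.79 ± 0.34 (SE, adjusted p = 0.156), followed by Ctla4 at 0.94 ± 0.42 (adjusted p = 0.171). These were the 2 genes of the 10 with an unadjusted p under 0.05, beside 4745 of all genes. DESeq2 called 0 of the 10, beside 2808 of all genes. For the average anti-PD1 effect, 0 of 10 passed, 0% of all genes passed, and 9 of 10 estimates were positive. The largest was that of Pdcd1lg2 at 0.76 ± 0.63, but the smallest p belonged to Cd274 at 0.73 ± 0.27 (adjusted p = 0.558), the only 1 of the 10 with an unadjusted p under 0.05, beside 1485 of all genes. DESeq2 called 0 of the 10 there as well, beside 11 of all genes.

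The interaction asks whether the 2 drugs together differ from the sum of their separate log2 effects. All 10 estimates were negative, that is, below that sum, with a median of -0.99 against -0.0049 for all genes. The median was -0.59 without anti-PD1 3 and -1.57 without combination 3. Markers of T, NK, dendritic and myeloid cells had mostly negative estimates too: the median interaction was -1.02 for the 10 T cell genes (0 of 10 positive), -1.03 for 7 dendritic cell genes (0 of 7 positive), -1.55 for 4 NK cell genes (0 of 4 positive) and -0.58 for the 9 myeloid genes (1 of 9 positive), whereas it was 0.23 for 5 neutrophil genes (3 of 5 positive), and 0 genes of these lists passed edgeR's test. Their part in the estimates of the 10 genes was not tested. Pdcd1lg2 had -3.42 ± 1.29 (SE) and Pdcd1 -1.38 ± 0.61, the 2 genes with an unadjusted p under 0.05, beside 449 of all genes. In edgeR 0 of 10 passed, as did 0% of all genes, and DESeq2 called 0 of 10 and 0 of all genes. The adjusted p of all 10 genes was 0.9998.

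The high values fell in a small set of libraries. For all 10 genes, combination 3, regorafenib 2 and anti-PD1 3 were among the 4 highest libraries, and regorafenib 1 was so for 9 of 10. These are the 4 libraries with the highest T cell and myeloid gene levels. At the low end, vehicle 2 and vehicle 3 were among the 4 lowest for 9 of 10 genes each, but so were combination 1 and anti-PD1 2 for 7 of 10 each, and regorafenib 3 for 5 of 10. In the other 5 treated libraries, Pdcd1 ran from 5.88 to 13.6 CPM and Ctla4 from 2.27 to 7.07 CPM, against 4.71 to 6.88 CPM for Pdcd1 and 2.12 to 3.44 CPM for Ctla4 in vehicle. Cd274 ran from 77.5 to 226 CPM in those 5 treated libraries against 45.5 to 90.3 CPM in vehicle, with anti-PD1 2 and regorafenib 3 below vehicle 1, and its highest value came from anti-PD1 1, which is not among the 4. Tigit ran from 5.18 to 8.39 CPM in the 5 treated libraries against 3.82 to 4.78 CPM in vehicle, and Pdcd1lg2 from 0.960 to 3.65 CPM against 0.694 to 0.922 CPM. For both, all 5 lay above all vehicle libraries, though Pdcd1lg2 only narrowly. The 5 libraries were set apart after seeing the data, and the share of all genes that separate so was not computed.

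**Figure D3:**
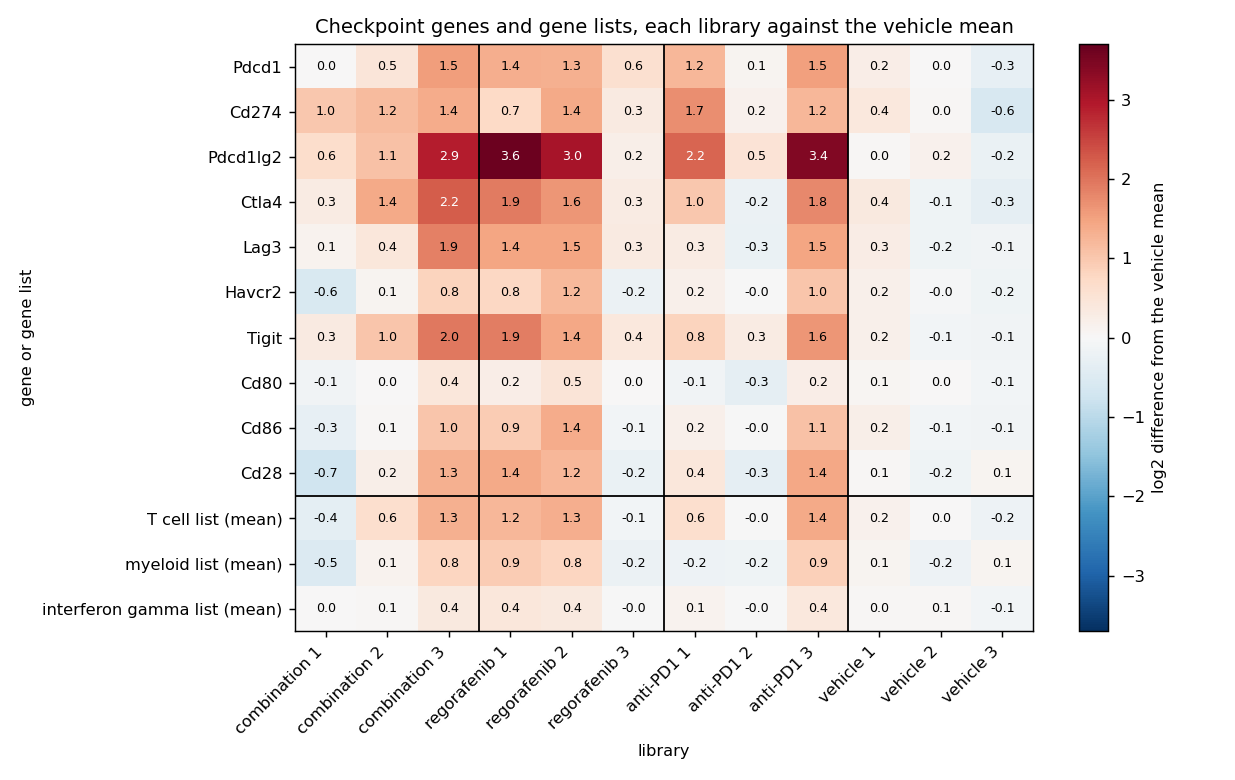
Log2 difference of each library from the vehicle mean for the 10 genes (upper rows) and for the mean of 3 gene lists (lower rows), grouped by treatment; numbers are the differences, red is higher and blue lower. The columns of combination 3, regorafenib 1, regorafenib 2 and anti-PD1 3 are high in almost every row, and Cd274 is also high in combination 1, combination 2 and anti-PD1 1.

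Markers of the cells known to carry these molecules were high in the same libraries. The 10 T cell genes summed to 50.9 to 165 CPM in combination tumours, 60.0 to 165 CPM under regorafenib, 64.7 to 170 CPM under anti-PD1 and 58.4 to 73.3 CPM under vehicle. The 9 myeloid genes summed to 371 to 1033 CPM in the combination, 480 to 1092 CPM under regorafenib, 549 to 1276 CPM under anti-PD1 and 558 to 688 CPM under vehicle. In edgeR 0 of the 10 T cell genes passed against vehicle in any treated group, at medians of 0.69 for the combination, 0.92 for regorafenib and 0.75 for anti-PD1. Of the 9 myeloid genes, 0 passed against vehicle, but 1 was higher in the average regorafenib effect. The 5 fibroblast markers summed to 3042 to 8796 CPM in the combination, 3632 to 21276 CPM under regorafenib, 4473 to 23239 CPM under anti-PD1 and 17617 to 22584 CPM under vehicle. Of 7 squamous, 4 endothelial and 5 fibroblast markers, 1 each was lower in the combination against vehicle, where 7.34% of all genes passed. In the average regorafenib effect 1 of each list was lower as well, where 9.49% of all genes passed. B cell markers were near 0, with 2 of 5 tested and a sum of 0.701 to 1.99 CPM over the 12 libraries. The part of these cell types in the levels of the 10 genes was not tested beyond the comparisons that follow.

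To set each receptor against the T cell content, its log2 CPM was expressed relative to the mean log2 CPM of the 10 T cell genes. The SD over the 12 libraries then dropped to 0.20 from 0.74 for Cd28, to 0.21 from 0.55 for Havcr2, to 0.26 from 0.75 for Tigit, to 0.27 from 0.67 for Pdcd1, to 0.29 from 0.75 for Lag3 and to 0.36 from 0.90 for Ctla4. Relative to the 9 myeloid genes it dropped to 0.20 from 0.55 for Havcr2 and to 0.21 from 0.58 for Cd86. That of Cd274 was 0.70 after and 0.68 before, and that of Cd80 0.33 after and 0.24 before. Pdcd1lg2 remained the most variable, at 1.03 after and 1.41 before. Cd274 and Cd80 thus varied no less relative to myeloid genes than on their own.

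Relative to T cell genes, Ctla4 stood at -0.51, -0.40 and -0.28 log2 units in combination tumours, -0.51, -0.86 and -0.74 under regorafenib, -0.79, -1.36 and -0.79 under anti-PD1, and -0.96, -1.30 and -1.29 under vehicle. Every combination library was above every anti-PD1 library, and every regorafenib library above every vehicle library. The mean difference with regorafenib minus without it was 0.53, and the exact permutation test within antibody backgrounds gave a two-sided p = 0.005, the smallest that its 400 arrangements allow, and an adjusted p of 0.055 over 22 tests. Tigit behaved alike, at 0.15, -0.16 and 0.10 in combination tumours, 0.11, -0.44 and -0.01 under regorafenib, -0.32, -0.20 and -0.29 under anti-PD1, and -0.49, -0.63 and -0.46 under vehicle. Its difference with regorafenib was 0.36 (exact permutation p = 0.005, adjusted p = 0.055). Every Tigit value under anti-PD1 also lay above every vehicle value. The regorafenib differences of Ctla4 and Tigit both miss the threshold after adjustment. For both, 12 of 12 libraries fall on the side of their group within each background, which is what gives the smallest p and adds nothing to it. The share of all genes that separate so relative to the T cell list was not computed. Over 22 tests, a p of 0.005 passes the adjustment only where further tests reach it too, so the test could not call these genes on their own.

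Lag3 differed by 0.35 with regorafenib (exact permutation p = 0.035, adjusted p = 0.154) and Pdcd1 by 0.07 (exact p = 0.715, adjusted p = 0.809). Cd28 differed by -0.06 and Havcr2 by -0.18 (adjusted p = 0.77 and 0.269 in the exact permutation test). With the antibody, Cd274 relative to myeloid genes was 0.82 higher, at a mean of 1.77 ± 0.65 (SD, n = 6) in combination and anti-PD1 libraries against 0.95 ± 0.49 in regorafenib and vehicle libraries (exact permutation p = 0.01, adjusted p = 0.0733). Pdcd1 relative to T cell genes differed by 0.08 with the antibody against its product (exact p = 0.68, adjusted p = 0.809). Relative to the same list, Ctla4 differed by 0.26 and Tigit by 0.20 with the antibody (exact permutation p = 0.065, adjusted p = 0.204 each). Havcr2 differed by -0.21 with it relative to T cell genes (exact permutation p = 0.035, adjusted p = 0.154). Relative to myeloid genes, however, Havcr2 differed by 0.08 with the antibody and by -0.08 with regorafenib (exact permutation, adjusted p = 0.77 each). Its sign with the antibody thus depended on the list. Of the 22 tests, 0 passed after adjustment in the exact permutation test, but 3 passed without combination 2 (Ctla4, Lag3 and Tigit with regorafenib) and 3 without combination 3 (Ctla4 and Tigit with regorafenib, Cd274 with anti-PD1), at an adjusted p of 0.0367 each.

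**Figure D4:**
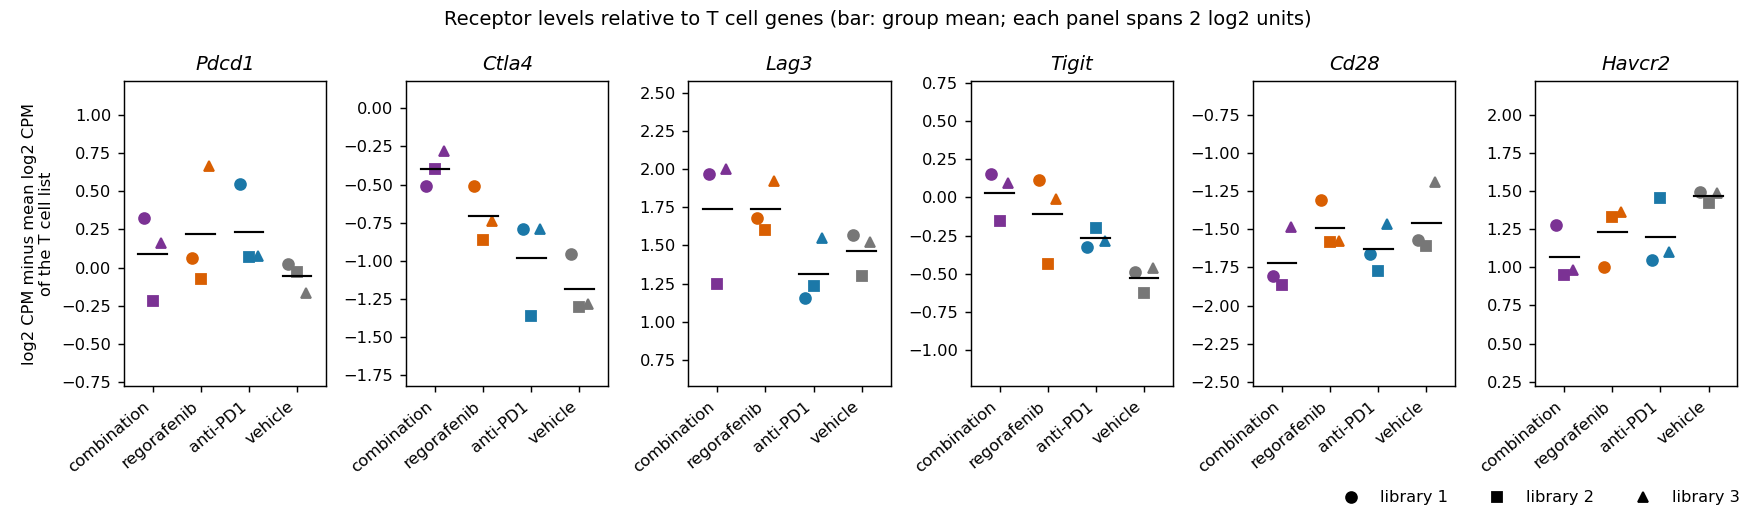
Log2 CPM of 6 receptor genes minus the mean log2 CPM of the T cell list, by treatment; symbols are libraries, bars are group means (n = 3), and each panel spans the same range in log2 units. For Ctla4 the 3 combination libraries, at -0.51 to -0.28, lie above the 3 anti-PD1 libraries at -1.36 to -0.79, and the regorafenib libraries, at -0.86 to -0.51, above the vehicle libraries at -1.30 to -0.96.

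Because the libraries fall into 2 clusters by list level, relations between gene and list were computed within the 8 libraries below the gap, with the choice made after seeing the data, and 12 were examined. In those 8 libraries 3 passed after adjustment, by exact permutation of Pearson's r: Havcr2 with the T cell list (r = 0.832, p = 0.00779, adjusted p = 0.0432, Spearman's rho = 0.881 with p = 0.00724), Cd28 with the T cell list (r = 0.826, p = 0.00925, adjusted p = 0.0432, rho = 0.714 with p = 0.0576), and Cd274 with the interferon gamma list (r = 0.828, p = 0.0108, adjusted p = 0.0432, rho = 0.738 with p = 0.0458). By rho 0 of the 12 passed after adjustment in the exact permutation test. Vehicle and treated libraries were permuted together here, without regard to group, so a difference between groups can appear as a relation. Pdcd1 had r = 0.715 with the T cell list (exact permutation p = 0.045, adjusted p = 0.0771, rho = 0.667 with p = 0.0831). Without the 2 libraries farthest from the median, r was 0.975 for Havcr2, 0.651 for Cd28 and 0.274 for Cd274, and 0 of the 12 passed (smallest adjusted p = 0.0667 in the exact test), so the relations of Cd28 and Cd274 rest on those libraries. For Cd274 the 2 libraries left out were anti-PD1 1 and vehicle 3. The 4 libraries above the gap are too few for a relation of their own.

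The genes nearest in pattern to Cd274 over the 12 libraries were sought among 12686 named genes with a mean of at least 1 CPM. They were Igtp (r = 0.983), Gbp4 (0.981), Gbp2b (0.978), Irgm2 (0.975) and Gbp10 (0.974), and in the 8 libraries below the gap their r was 0.971 to 0.993. All 5 encode interferon-inducible GTPases. Igtp had 487, 546 and 682 CPM in combination tumours, 460, 714 and 383 CPM under regorafenib, 752, 367 and 640 CPM under anti-PD1, and 415, 376 and 253 CPM under vehicle. As for Cd274, the highest Igtp value was that of anti-PD1 1 and the lowest that of vehicle 3. The Gbp genes and the Irgm genes are families of close paralogs. How the counting split reads between paralogs is not given in the sources used here, so the values of all 5 genes, Igtp included, are uncertain.

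Those nearest to Pdcd1 were Gpr174 (r = 0.958), Cytip (0.950), Sh2d2a (0.945), Il2rb (0.945) and Tox (0.944), with r of 0.823 to 0.902 in the 8 libraries. Gpr174 encodes a receptor of lymphocytes, Sh2d2a a T cell adaptor, Il2rb a chain of the receptors for interleukins 2 and 15, and Tox a nuclear factor of exhausted T cells. Ranked by likeness to Pdcd1, Pdcd1lg2 came 13th (r = 0.935), Tigit 20th (0.923) and Ctla4 41st (0.911), whereas Cd274 came 492nd (0.772). Ranked by likeness to Cd274, the first of the other 9 genes was Ctla4, at 137th (0.778). These correlations describe shared patterns over libraries that also share depth and tissue content, and carry no test. Of the 10 likest genes, 0 passed edgeR's test in the combination, under regorafenib or under anti-PD1 against vehicle, or in the average regorafenib effect. The nearest was Gbp4 in the combination, at 1.51 ± 0.45 (SE, adjusted p = 0.0664).

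**Figure D5:**
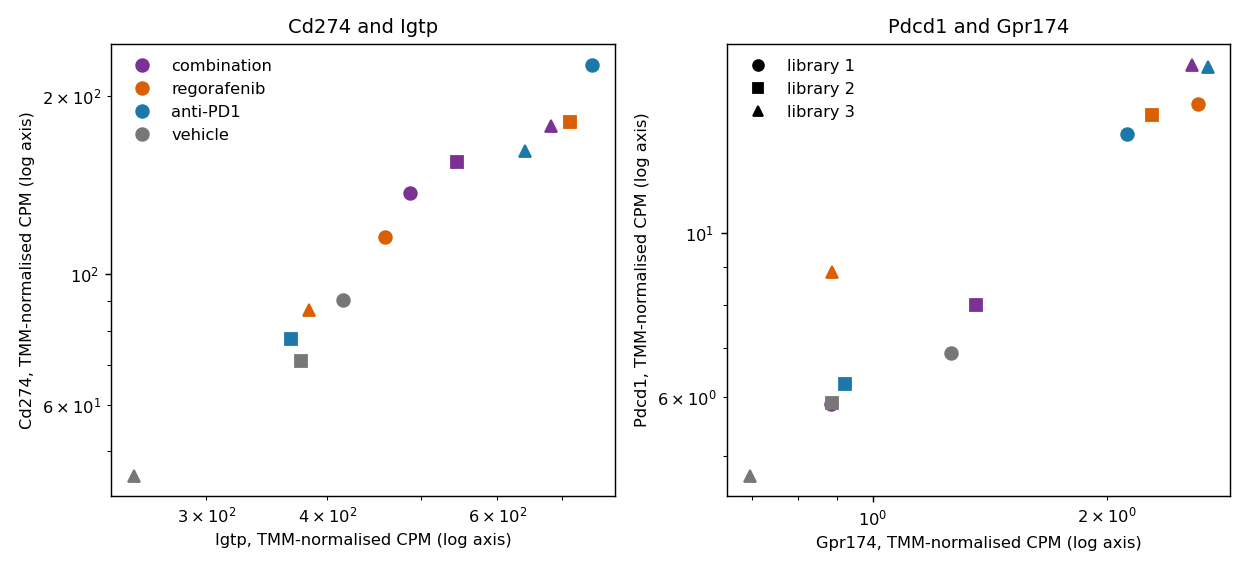
Level of Cd274 against Igtp (left) and of Pdcd1 against Gpr174 (right), each point a library, colours the treatments and symbols the library numbers, on log axes in TMM-normalised CPM. The points for Cd274 and Igtp follow a line over the 12 libraries (r = 0.983), with anti-PD1 1 at the top and vehicle 3 at the bottom.

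The wider pathway was covered by 4 gene lists, to be read beside the 9.49% of all genes that passed in the average regorafenib effect and the 7.34% in the combination against vehicle. Of 26 other inhibitory receptors and ligands, 25 were tested, and 1 rose: Pvr, which encodes the ligand shared by TIGIT, CD226 and CD96. Pvr had 28.3, 24.0 and 20.4 CPM in combination tumours, 17.5, 18.1 and 23.1 CPM under regorafenib, 16.4, 15.6 and 16.1 CPM under anti-PD1, and 15.9, 15.6 and 14.1 CPM under vehicle. All 6 libraries with regorafenib lay above all 6 without it, but the share of all genes that separate so was not computed. Pvr was highest in combination 1, which had the lowest T cell level of all, followed by combination 2, regorafenib 3 and combination 3. The relation of Pvr to T cell content was not tested. Pvr rose in the combination against vehicle by 0.67 ± 0.14 (SE, edgeR adjusted p = 0.0245) and in the average regorafenib effect by 0.48 ± 0.10 (adjusted p = 0.0176). The average effect missed the threshold without vehicle 3 or without anti-PD1 2 (adjusted p up to 0.0574), and the combination value missed it in 5 of 12 such fits, those without vehicle 1, 2 or 3 or combination 1 or 2 (adjusted p up to 0.103).

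The other members of that list with the smallest p in the average regorafenib effect did not pass: Nectin3, an adhesion molecule related to Pvr, had -0.82 ± 0.25 (SE, edgeR adjusted p = 0.0617), Klrg1 1.07 ± 0.51 (0.199) and Lgals3 -0.19 ± 0.11 (0.279). The list's median log2 fold change was 0.18 in the combination against vehicle, 0.37 under regorafenib and 0.31 under anti-PD1. Of 20 other costimulatory receptors and ligands, 19 were tested and 1 rose in the average regorafenib effect: Tnfrsf25, the death receptor DR3 of T cells. It had 4.02, 3.90 and 3.66 CPM in combination tumours, 3.04, 5.32 and 4.65 CPM under regorafenib, 2.25, 2.61 and 3.05 CPM under anti-PD1, and 3.06, 2.62 and 2.97 CPM under vehicle, a log2 fold change of 0.57 ± 0.16 (adjusted p = 0.0469). That call held in 1 of 12 fits with a library left out, the one without regorafenib 1, and the adjusted p reached 0.116. Next in that list were Tnfsf9, the 4-1BB ligand, at 0.54 (adjusted p = 0.0635), its receptor Tnfrsf9 at 0.74 (0.134) and Tnfrsf8 at 1.24 (0.163). The list's median was 0.46 in the combination against vehicle, 0.84 under regorafenib and 0.69 under anti-PD1.

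Of 22 genes of PD-1 signalling and of the exhaustion programme, 0 passed edgeR's test in any comparison. Those with the smallest p in the average regorafenib effect were Tcf7, a factor of progenitor-like T cells, at 0.46 ± 0.15 (SE, adjusted p = 0.0792), Eomes at 1.02 (0.148), Tox2 at 1.15 (0.161) and Tox at 0.89 (0.162). The list's median was 0.47 in the combination against vehicle, 0.77 under regorafenib and 0.49 under anti-PD1, positive for 18, 20 and 21 of the 22 genes. Entpd1 is also in the first list, and Lck and Eomes are markers of T and NK cells.

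Of 17 genes on the path from interferon gamma to PD-L1, 1 rose: Stat2, a transcription factor gene of type I interferon signalling. It had 354, 419 and 462 CPM in combination tumours, 440, 483 and 346 CPM under regorafenib, 337, 236 and 354 CPM under anti-PD1, and 284, 259 and 214 CPM under vehicle. It rose by 0.71 ± 0.18 (SE) in the combination against vehicle (edgeR adjusted p = 0.0448) and by 0.58 ± 0.13 in the average regorafenib effect (adjusted p = 0.0242). The average effect missed the threshold without vehicle 2, vehicle 3, anti-PD1 2 or combination 2 (adjusted p up to 0.0661), and the combination value missed it in 8 of 12 such fits, those without any 1 of the vehicle or combination libraries, regorafenib 1 or anti-PD1 3 (adjusted p up to 0.164). Irf9 had 0.17 (adjusted p = 0.102) and Myc 0.22 (0.193) in the average regorafenib effect. The list's median was 0.11 in the combination against vehicle, 0.21 under regorafenib and 0.16 under anti-PD1, beside 0.02, 0.01 and 0.01 for all genes.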

How the data were processed

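RNA of 12 Sq-1979 tumour samples was measured, 3 in each of 4 groups taken from the treatment label. The deposited values are the authors' raw read counts per Ensembl gene, in 1 table. Per the submitters' processing notes, cutadapt 2.4, STAR 2.7.2a and build GRCm38 were used; how reads were assigned to genes (tool, strand, annotation release) is not given in the sources used here. GENCODE M21 gave symbols, coordinates and exon lengths (55227 of 55487 identifiers match with the version ignored); promoters are RefSeq's, build GRCm38.p6.

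Genes were filtered with filterByExpr (minimum count 10, minimum total 15) and tested two-sided with edgeR 4.0.16 (R 4.3.3) by quasi-likelihood, in a fit of 4 group means with TMM factors (8 residual degrees of freedom), with Benjamini-Hochberg adjustment within each of 8 comparisons and a threshold of 0.05. Log2 CPM used a prior count of 2. Levels relative to a list were tested by exact permutation within the backgrounds of the other drug, and relations by permutation (1e+05 permutations with 10 or more libraries, exact with fewer). The procedure was also tested on simulated data with known changes.

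Alternatives were DESeq2 1.42.0, RLE factors, no filter, a replicate block, libraries of the pair only, an additive model, a prior count of 0.5, single marker genes in place of lists, and each library left out in turn, with the spread pooled over all groups.

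The genes named are the 10 genes, from each pathway list the 4 with the smallest p in the average regorafenib effect and any that passed, and the 5 likest to Cd274 and to Pdcd1. Predicted and clone names were not considered there. A gene that this rule names and 1 searched motif are not reported here. The 10 genes and the lists were chosen with earlier results of these data known.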

Additional observations from a re-analysis of the deposited data

How the results depend on the processing

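In edgeR each of the 8 comparisons called 0 of the 10 genes with RLE factors, with no filter on low counts or with any single library left out, and so did the additive model in the average regorafenib and average anti-PD1 effects, the comparisons it was run for. DESeq2 called 1 in the combination against vehicle (Cd274) and 1 under regorafenib against vehicle (Pdcd1lg2), and the 6 libraries of the pair called 1 in the combination against vehicle (Cd274). Of the 22 levels relative to a list, 0 to 3 passed with a library left out. Relations to lists passed for 12 of 12 over all 12 libraries, which form 2 clusters, and for 3 of 12 in the 8 below the gap, where Pdcd1lg2 and the myeloid list had r = -0.22. The cause of these changes was not tested.

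Replicate numbers are shared by the groups in the labels, but 2 of 18 same-numbered pairs correlated above 0.1 (from -0.657 to 0.63) and 2 of 12 libraries correlated best with their own number. These correlations compare deviations within groups of 3 libraries and cannot exclude a pairing, so whether the numbers pair samples is not known. The main fit did not pair them. With a replicate block 0 of 10 genes passed in each comparison. Signs turned for Ctla4 in the combination against regorafenib (-0.0064) and for Havcr2 (-0.043), Cd86 (-0.061) and Cd28 (-0.030) in the average anti-PD1 effect. For the relative levels, the mean of each replicate number was subtracted instead. Then 5 of 22 passed: Ctla4, Lag3 and Tigit with regorafenib, and Tigit and Cd274 with anti-PD1. Labels were not permuted within replicate numbers, so this was not a blocked test and the 5 are not counted as calls. With Csf1r alone in place of the myeloid list, the regorafenib differences turned to 0.28 for Havcr2 and 0.33 for Cd80. Relative to the list they were -0.08 and -0.03.

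Over all genes, combination against vehicle had 1246 calls, against 2614 in DESeq2, 663 with no filter, 11 with the block and 2068 in the pair alone. Regorafenib against vehicle had 1, against 425 in DESeq2, 6 with no filter, 0 with the block and 0 in the pair alone. Combination against anti-PD1 had 326, against 1202 in DESeq2, 0 with the block and 0 in the pair alone. The average regorafenib effect had 1610, against 2808 in DESeq2, 959 with no filter and 504 with the block. DESeq2 called 5, 4 and 11 genes for anti-PD1 against vehicle, combination against regorafenib and the average anti-PD1 effect, where edgeR called 0.

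With a library left out, estimates near 0 turned sign. Lowest and highest values for the combination against vehicle were -0.18 to 0.51 for Havcr2, -0.056 to 0.23 for Cd80, -0.12 to 0.61 for Cd86 and -0.17 to 0.87 for Cd28. Against anti-PD1 they were -0.81 to 0.027 for Pdcd1, -0.32 to 0.39 for Cd274, -1.59 to 0.34 for Pdcd1lg2, -0.11 to 0.98 for Ctla4, -0.41 to 0.94 for Lag3, -0.66 to 0.13 for Havcr2, -0.33 to 0.64 for Tigit, -0.0058 to 0.33 for Cd80, -0.62 to 0.25 for Cd86 and -0.85 to 0.40 for Cd28. Against regorafenib they were -0.47 to 0.43 for Ctla4, -0.89 to 0.12 for Lag3 and -0.65 to 0.25 for Tigit. In the average anti-PD1 effect they were -0.097 to 0.42 for Lag3, -0.20 to 0.17 for Havcr2, -0.23 to 0.17 for Cd86 and -0.22 to 0.29 for Cd28. Cd80 gave -0.21 to 0.077 for anti-PD1 against vehicle and -0.26 to 0.065 for the interaction. Relative to lists, the anti-PD1 differences were -0.14 to 0.050 for Lag3, -0.11 to 0.11 for Cd80 and -0.0011 to 0.19 for Pdcd1, and the regorafenib differences -0.15 to 0.078 for Cd80, -0.040 to 0.11 for Cd86, -0.045 to 0.15 for Pdcd1 and -0.12 to 0.0070 for Cd28.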
